A study of Mus musculus with 24 samples.

Results

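The 10 genes described here drive or restrain the step from G1 into S phase: the D cyclins Ccnd1, Ccnd2 and Ccnd3, their kinase partners Cdk4 and Cdk6, the kinase inhibitors Cdkn1a, Cdkn1b, Cdkn2c and Cdkn2d, and Ccne1, the cyclin that acts after them. They were picked by gene symbol, with earlier results of these data known, and each had 1 row among the 24421 genes counted. All 10 were followed in 24 RNA-seq libraries of mouse bone marrow cells, 12 of common lymphoid progenitors (CLPs) and 12 of B cell progenitors. Both were sorted as IL-7R+ cells of the CD45.2+ donor, the CLPs being Lin- and the B cell progenitors B220+ and IgM-. Each population had 3 mice of each of 4 genotypes, and 1 CLP library and 1 B cell progenitor library came from each mouse. The genotypes were Plcg1+/+Plcg2+/+ (the control), the single-deficient Plcg1-/-Plcg2+/+ and Plcg1+/+Plcg2-/-, and the double-deficient Plcg1-/-Plcg2-/-, written with PLCgamma1 and PLCgamma2 in the labels, and the comparisons ask how loss of 1 or both of these phospholipases bears on the earliest B lineage cells.

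Plcg1 was deleted in the donors through Cre under the Mx promoter, which type I interferon switches on in many blood and non-blood cells, whereas Plcg2 was absent from the germ line. Donors of all 4 genotypes carried MxCre and a YFP reporter and received poly(I-C), so the controls share the Cre and the treatment. Their marrow, of mixed 129 and C57BL/6 background and from animals of both sexes injected at 6 to 12 weeks of age and killed 3 weeks after the last injection, was placed in lethally irradiated wild-type CD45.1+ recipients, and donor-derived cells were sorted 6 to 8 weeks later. The number of donors behind the 3 recipients of a genotype is not given in the sources used here, so p-values measure the spread between recipients.

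D cyclins are made in response to growth signals and activate Cdk4 and Cdk6. The active kinases phosphorylate Rb, which frees E2F factors to switch on Ccne1, Ccne2 and the DNA replication genes. Inhibitors of the Ink4 family, Cdkn2c and Cdkn2d among them, bind Cdk4 and Cdk6 alone, whereas Cdkn1a and Cdkn1b of the Cip/Kip family bind cyclin-kinase complexes more widely and hold Cdk2 in check. In B cell development cyclin D3 is the D cyclin best known for the expansion of pre-B cells, and IL-7 signals sustain the cycling of the progenitors.

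Several facts of the libraries bear on every value below. Reads on genes ranged from 4232345 to 33219995 in CLP libraries and from 1479582 to 25057223 in B cell progenitor libraries, so that 3 reads corresponded to at most 0.709 and 2.03 CPM, the count scaled to library size. Between 17.9% and 45.2% of CLP reads and between 59.9% and 87.3% of B cell progenitor reads fell outside genes, and the part of this gap in the population differences was not tested. The labels of the populations were not cleanly mirrored by marker genes: Pax5, the B lineage factor, ranged from 37.7 to 253 CPM in CLPs and from 52.4 to 218 CPM in B cell progenitors, and Cd79a, a part of the B cell receptor, from 107 to 1183 and from 270.1 to 955 CPM. The control CLPs were themselves uneven: Flt3, a receptor of early progenitors, was at 735 CPM in Plcg1+/+Plcg2+/+ CLP replicate 1 and at 25.8 CPM, the lowest of the 12 CLP libraries, in replicate 2. Replicate 2 also had the highest Pax5 (253 CPM) and the highest sum of 10 proliferation genes (7747 CPM) of the CLP libraries, and replicate 1 the lowest Pax5. Markers of other cells were present in both populations, with the sum of Elane, Mpo, Prtn3, S100a8 and S100a9 at 1916 to 7391 CPM in CLPs and 1178 to 6851 CPM in B cell progenitors. Erythroid markers were low, with a sum of at most 53.5 CPM and Hbb-bs at 0 in all libraries. In these bulk samples fewer cells of a type and less RNA per cell cannot be told apart.

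Plcg2 transcript was lower in Plcg2-/- libraries, with a mean in B cell progenitors of 91.6 ± 19.3 CPM (SD, n = 3) for the double-deficient genotype against 234 ± 19.3 CPM for the control. Plcg1 transcript was not lower in the libraries labelled Plcg1-/-, at 127 ± 65.4 against 92.8 ± 15.97 CPM. Reads were counted over the whole gene, and a Cre deletion removes only the exons between its target sites, so this count does not check the Plcg1 label. All libraries labelled Plcg1-/- also carried high Xist, 1294 to 2314 CPM in CLPs and 1463 to 2191 CPM in B cell progenitors, where the others had 23.6 to 743 and 49.4 to 120.1 CPM. Plcg1 genotype and this sex-linked difference therefore cannot be told apart in these mice. All 10 genes are autosomal, and the part of sex in their levels was not tested.

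Ccnd3 was the D cyclin with the highest level per exon length in all 24 libraries. Of the CPM per kilobase of exon summed over the D cyclins, Ccnd3 held between 77.5% and 96.0% in a library, with a median of 86.7%. Ccnd2 held 2.66% to 14.9% and Ccnd1 1.03% to 9.20%. Exons of Bysl, a ribosome assembly gene, share 361 bases with Ccnd3 on the other strand, and the library kit did not mark the strand. Whether reads of that stretch were counted to a gene or set aside as ambiguous is not given in the sources used here.

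**Figure D1:**
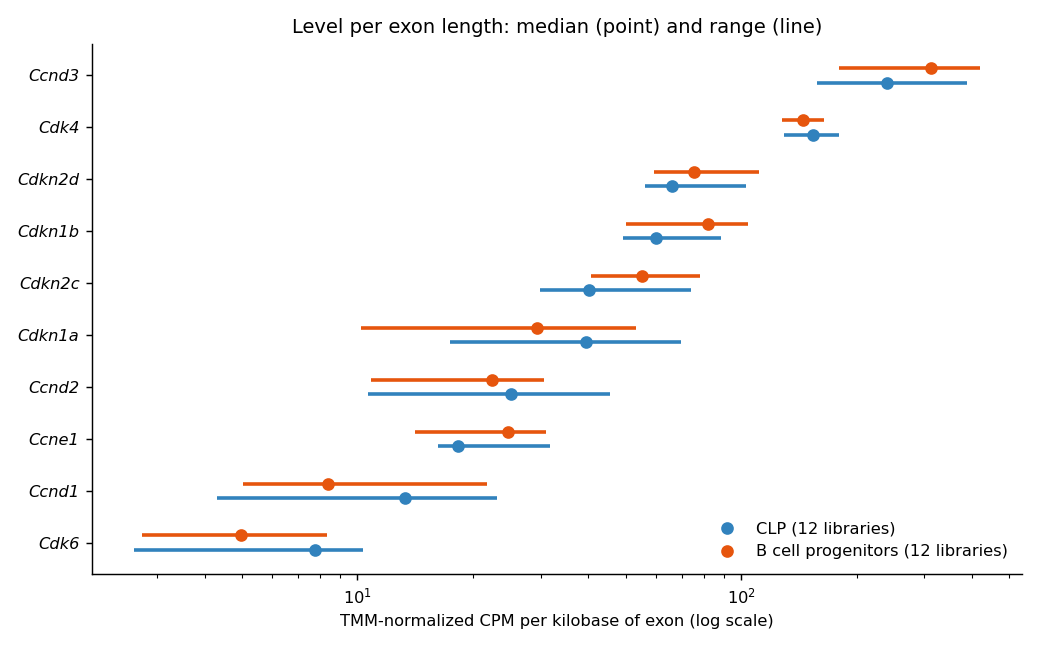
Level of each gene as TMM-normalized CPM per kilobase of exon (horizontal log axis), with the median as a point and the range over 12 libraries as a line, CLPs in blue and B cell progenitors in orange. Ccnd3 and Cdk4 lie at the top with medians of 240.2 and 153 in CLPs, and Cdk6 at the bottom with 7.74.

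Per kilobase, the order of the medians was the same in both populations but for 2 swaps of neighbours, with Cdkn1b above Cdkn2d and Ccne1 above Ccnd2 in B cell progenitors. In CLPs the medians per kilobase ran from Ccnd3 at 240.2 through Cdk4 at 153, Cdkn2d at 65.9, Cdkn1b at 60.1, Cdkn2c at 40.0, Cdkn1a at 39.3, Ccnd2 at 25.1, Ccne1 at 18.3 and Ccnd1 at 13.3 to Cdk6 at 7.74. Cdk4, the kinase present at high level, was separated from the inhibitors below it, since its lowest CLP library held 129 CPM per kilobase and the highest Cdkn2d library 103. Below Cdk4 each gene overlapped its neighbours in the order over the 12 libraries. Ccnd3 in B cell progenitors (180 to 419.7 CPM per kilobase) also stood clear of Cdk4 (128 to 164), which it did not in CLPs (157 to 387 against 129 to 179.9). Cdk4 was the steadiest gene, with a ratio of highest to lowest library of 1.39 in CLPs and 1.28 in B cell progenitors. Cdkn1a, a target of p53 that rises on DNA damage, was the least steady in B cell progenitors with a ratio of 5.18, and Ccnd1 in CLPs with 5.38.

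The promoters of 8 of the 10 genes were in the RefSeq table used here (GRCm38.p6, 250 bases before to 50 bases after the start, 11 promoters in all), and those of Ccnd1 and Ccnd2 were not. The letters of an E2F site, TTTGGCGC or TTTCCCGC on either strand, were in 0 of the 11 windows, against 1.56% of all 32851 promoters. The letters GTAAACA, bound by forkhead factors such as Foxo1, were in 1 window, a start of Ccnd3, against 3.65% of all promoters. The E-box CACGTG, which Myc binds and which reads the same on both strands, was in windows of 3 genes, Cdk4, Cdk6 and Cdkn2c, against 7.15% of all promoters. Cdk4 held it 4 times, from 172 to 6 bases before its start, and Cdkn2c held it once, 35 to 40 bases after its downstream start. These are matches of letters only. The windows of Cdk4 (chr10:127063285-127063584, plus strand) and Cdkn2c (chr4:109665323-109665622, minus strand) are shown, with the E-box in capitals, the first for its repeated match and the second because Cdkn2c had the smallest adjusted p of the 10 genes between the populations.
Cdk4: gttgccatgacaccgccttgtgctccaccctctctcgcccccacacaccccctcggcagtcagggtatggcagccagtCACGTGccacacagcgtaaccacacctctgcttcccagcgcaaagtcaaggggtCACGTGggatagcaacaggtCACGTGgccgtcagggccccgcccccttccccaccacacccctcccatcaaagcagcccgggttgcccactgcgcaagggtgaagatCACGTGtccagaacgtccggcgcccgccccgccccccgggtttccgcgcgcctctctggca
Cdkn2c: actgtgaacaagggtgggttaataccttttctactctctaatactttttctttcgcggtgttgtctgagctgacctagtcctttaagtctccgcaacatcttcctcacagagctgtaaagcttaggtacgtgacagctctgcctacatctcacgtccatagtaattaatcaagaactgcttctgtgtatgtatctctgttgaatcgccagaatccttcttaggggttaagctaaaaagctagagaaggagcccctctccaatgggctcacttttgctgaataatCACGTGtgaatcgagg

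Between the populations, Cdkn1b and Cdkn2c were higher in B cell progenitors than in the CLPs of the same mouse in 12 of 12 mice, and Ccnd3 in 11 of 12. Ccnd2 and Cdkn1a were lower in B cell progenitors in 11 of 12 mice, and Ccnd1 and Cdk6 in 9 of 12. Cdkn2d and Ccne1 were higher in 6 of 12 mice and lower in 6. These counts take no account of size. Cdkn1b in double-deficient replicate 1 was at 117 CPM in CLPs and 120 CPM in B cell progenitors. Cdkn2c in control replicate 2 was at 199 and 204 CPM. The share of all genes with such counts of mice was not computed. Averaged over the genotypes, the log2 difference of B cell progenitors from CLPs was 0.48 ± 0.12 (SE) for Cdkn2c (adjusted p = 0.00559, edgeR, quasi-likelihood test, Benjamini-Hochberg over 17212 genes), 0.33 ± 0.11 for Cdkn1b (adjusted p = 0.0351) and -0.43 ± 0.15 for Ccnd2 (adjusted p = 0.0376).

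A gene was called where its adjusted p was 0.05 or less and its log2 fold change was 0.5 or more in size. By that rule 0 of the 10 genes were called between the populations, while 14.4% of all genes tested were. By adjusted p alone 3 of 10 passed, beside 30.1% of all genes tested, and 7 of 10 had an unadjusted p within 0.05, beside 41.7%. DESeq2 also called 0 of 10. With the mouse as a block, Cdkn1a was called, at a log2 difference of -0.69 (adjusted p = 0.0252). The call rule turned on single libraries too: without Plcg1+/+Plcg2+/+ CLP replicate 2, the CLP library with the lowest Flt3, 4 genes were called, Ccnd1 (-0.69), Ccnd2 (-0.53), Cdk6 (-0.59) and Cdkn2c (0.51). Over all genes, the fits with a library left out called 1970 to 3222 of 17820 to 19175 tested. The other settings, the mouse block among them, called at least 2118.

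The Plcg1+/+Plcg2+/+ libraries alone gave differences of the same sign for all 10 genes, with wider errors. These libraries are also part of the average over genotypes, so the shared sign is not independent of it. Cdkn2c stood at 201, 204 and 190.1 CPM in B cell progenitors and at 81.3, 199 and 130 CPM in CLPs, so the groups overlapped through CLP replicate 2. The log2 difference for Cdkn2c was 0.54 ± 0.24 (adjusted p = 0.273). Here 0 of 10 genes were called by edgeR and by DESeq2, 1 had an unadjusted p within 0.05, against 16.1% of all genes tested, and 3.5% of all genes tested were called. Without CLP replicate 2 Cdkn2c was called at 0.91. Over all genes tested, the fits with a library left out called 375 to 606 here. In 3 genes, Ccnd2, Cdk4 and Cdkn1a, all 3 B cell progenitor libraries lay below all 3 CLP libraries, as did 8.37% of all genes tested.

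Further along the pathway, Ccne2 was the listed gene with the largest difference between the populations. Ccne2, which like Ccne1 activates Cdk2, ranged from 88.7 to 150.3 CPM in B cell progenitors and from 20.9 to 37.8 CPM in CLPs, with no overlap. Its log2 difference was 2.00 ± 0.12 (adjusted p = 2.31e-11), whereas that of Ccne1 was 0.16 ± 0.12 (adjusted p = 0.354). Of the 7 later cyclins and kinases tested, 3 rose, the others being the S phase cyclin Ccna2 (0.94 ± 0.15, adjusted p = 7.94e-05) and the mitotic cyclin Ccnb1 (0.68 ± 0.15, adjusted p = 0.00191), and 0 fell. Of 13 pocket protein and E2F genes 1 rose, Rb1 itself (0.53 ± 0.08, adjusted p = 5.09e-05). Of 8 genes of activation and turnover 1 rose, Ccnh, a subunit of the kinase that activates Cdk4 and Cdk2 (0.54 ± 0.08, adjusted p = 4.06e-05). Among 6 upstream regulators 2 fell, Myc (-0.51 ± 0.16, adjusted p = 0.0204) and Foxo3 (-0.51 ± 0.16, adjusted p = 0.0188), and 0 rose. These counts of called genes stand beside the 14.4% called among all genes tested.

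The double-deficient genotype was compared with Plcg1+/+Plcg2+/+ in each population, each fit with all 12 libraries of the population and adjusted over the 15209 (CLP) or 15001 (B cell progenitor) genes tested. Ccnd2, the D cyclin that growth signals induce in many lymphoid cells, was lower without overlap in both. Ccnd2 in B cell progenitors was at 146, 139.6 and 144 CPM in Plcg1+/+Plcg2+/+ and at 121, 68.7 and 83.6 CPM in libraries labelled Plcg1-/-Plcg2-/-. In CLPs it was at 288, 155 and 160.1 CPM and at 145, 121 and 67.3 CPM. The highest double-deficient library lay below the lowest control in both populations, by a wider margin in B cell progenitors. The log2 fold change was -0.67 ± 0.25 in B cell progenitors (adjusted p = 0.297, edgeR) and -0.87 ± 0.33 in CLPs (adjusted p = 0.555, edgeR), so Ccnd2 did not pass the adjusted test in either. Without Plcg1+/+Plcg2+/+ replicate 1, the CLP library with the highest Ccnd2 of that comparison, the CLP value was -0.53.

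**Figure D2:**
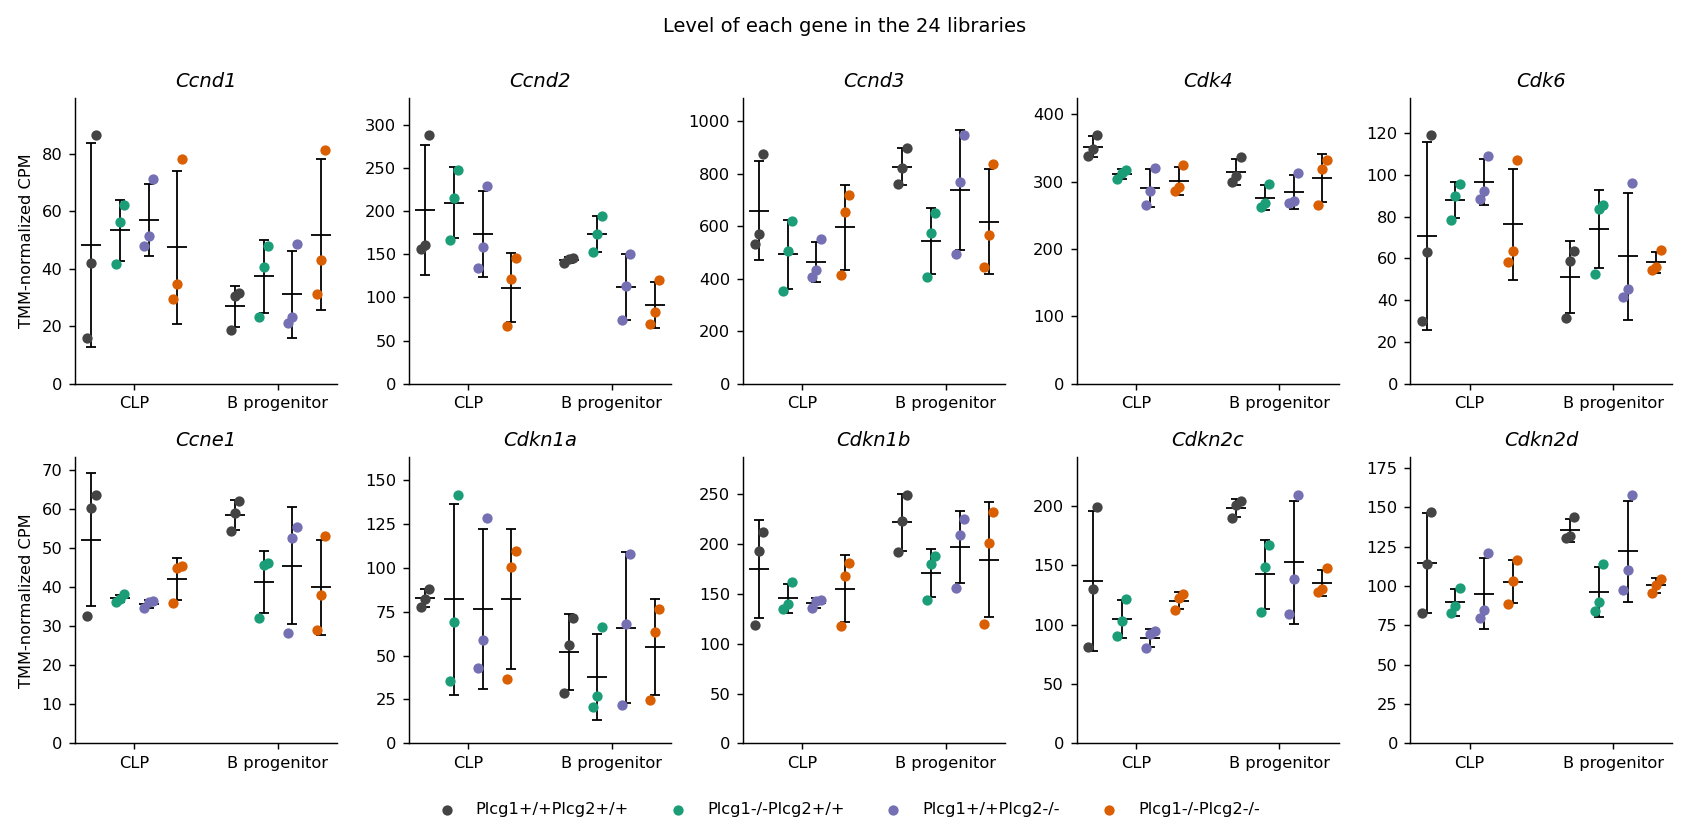
TMM-normalized CPM of each gene (vertical axes from 0) in each library, with colour for genotype and a bar for the mean ± SD of 3 libraries, CLPs on the left and B cell progenitors on the right of each panel. Ccnd2 lies at 68.7 to 121 CPM in B cell progenitors labelled Plcg1-/-Plcg2-/- and at 139.6 to 146 CPM in Plcg1+/+Plcg2+/+.

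The single-deficient genotypes placed Ccnd2 differently. In libraries labelled Plcg1-/-Plcg2+/+ it was at 152, 173 and 194 CPM in B cell progenitors and at 166, 248 and 215 CPM in CLPs, above every double-deficient library of the same population. The log2 fold change of the double-deficient genotype against Plcg1-/-Plcg2+/+ was -0.96 ± 0.25 in B cell progenitors (adjusted p = 0.161, edgeR) and -0.92 ± 0.33 in CLPs (adjusted p = 0.901, edgeR). DESeq2 called Ccnd2 in the B cell progenitor comparison (log2 -0.95, adjusted p = 0.0226), the 1 call it made among the 10 genes over all comparisons. In that comparison DESeq2 also called 5.35% of all genes tested. In Plcg1+/+Plcg2-/- libraries Ccnd2 was at 149.9, 73.7 and 113 CPM in B cell progenitors and 158, 229 and 133 CPM in CLPs, overlapping both the double-deficient libraries and the controls.

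Beside Ccnd2, the other members that separated in B cell progenitors were 2 Ink4 inhibitors and Ccne1. Cdkn2c was at 201, 204 and 190.1 CPM in Plcg1+/+Plcg2+/+ and at 129.8, 147 and 128 CPM in Plcg1-/-Plcg2-/-. Cdkn2d was at 132, 144 and 130.5 against 95.4, 101 and 105 CPM. Ccne1 was at 54.4, 62.0 and 59.0 against 28.8, 52.9 and 37.9 CPM. In each of these genes all double-deficient libraries lay below all controls. The log2 fold changes were -0.56 ± 0.22 for Cdkn2c (adjusted p = 0.320 by edgeR), -0.43 ± 0.18 for Cdkn2d (adjusted p = 0.344 by edgeR) and -0.54 ± 0.26 for Ccne1 (adjusted p = 0.431 by edgeR). Cdkn2c was among the genes that the study displayed for this same comparison, so its direction here is not independent evidence. Against Plcg1-/-Plcg2+/+ B cell progenitors, the double-deficient log2 fold changes were -0.10 ± 0.22 for Cdkn2c, 0.04 ± 0.18 for Cdkn2d and -0.06 ± 0.26 for Ccne1. Against Plcg1+/+Plcg2-/- they were -0.20 ± 0.22, -0.31 ± 0.18 and -0.19 ± 0.27. The libraries overlapped in all of these.

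Ccnd1 went the other way in B cell progenitors but with overlap. It was at 30.6, 18.8 and 31.5 CPM in Plcg1+/+Plcg2+/+ and at 81.3, 31.1 and 43.2 CPM in Plcg1-/-Plcg2-/-, where replicate 1 was the highest of the 24 libraries but for 1. Its log2 fold change was 0.92 ± 0.40 (adjusted p = 0.386, edgeR). In CLPs Ccnd1 was at 86.5, 16.1 and 42.1 against 78.0, 34.8 and 29.6 CPM, which overlapped throughout (log2 -0.05 ± 0.50). Ccnd3, the main D cyclin, was at 820.1, 899.8 and 761 against 446, 838 and 567 CPM in B cell progenitors (-0.43 ± 0.27, adjusted p = 0.541 by edgeR). Of the remaining members in B cell progenitors, Cdk4 (-0.05 ± 0.13), Cdk6 (0.18 ± 0.32), Cdkn1a (0.10 ± 0.57) and Cdkn1b (-0.26 ± 0.23) had differences close to or below their standard errors. Without replicate 1 of Plcg1-/-Plcg2-/- the log2 fold change of Ccnd1 was 0.46.

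Among the 10 genes in B cell progenitors edgeR called 0 between Plcg1-/-Plcg2-/- and Plcg1+/+Plcg2+/+, against 0.893% of all genes tested, DESeq2 called 0, and 4 had an unadjusted p within 0.05, against 12.3% of all genes tested. The groups did not overlap, with the double-deficient one lower, in 4 of 10 genes and in 10.2% of all genes tested. In CLPs edgeR called 0 of 10, against 0.0921% of all genes tested, DESeq2 called 0, and 1 had an unadjusted p within 0.05, against 7.52% of all genes tested. Ccnd2 and Cdk4 did not overlap there, with the double-deficient libraries lower, as in 7.32% of all genes tested. Cdk4 was at 369, 349 and 338 CPM in control CLPs and at 325, 292 and 286 CPM in double-deficient CLPs (log2 -0.24 ± 0.11, adjusted p = 0.675 by edgeR). The median log2 fold change over the 10 genes was -0.35 in B cell progenitors and -0.17 in CLPs, and over all genes tested it was -0.02 and -0.03.

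**Figure D3:**
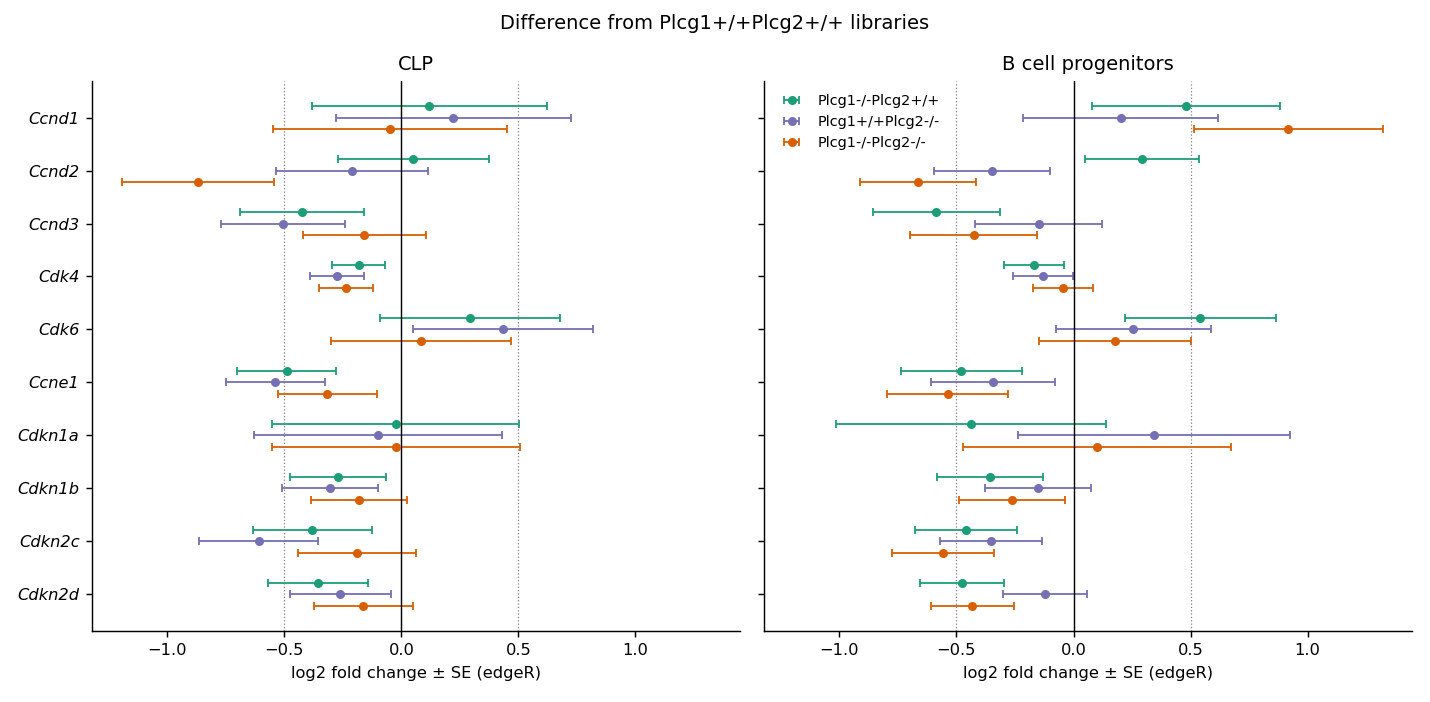
Log2 fold change ± SE of each gene against Plcg1+/+Plcg2+/+ (horizontal axis, edgeR) for the other 3 genotypes, CLPs on the left and B cell progenitors on the right, with dotted lines at the fold of the call rule. Ccnd2 in the double-deficient genotype lies at -0.87 and -0.67, and Ccnd1 in double-deficient B cell progenitors at 0.92.

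The difference between the populations in this effect was tested directly. For Ccnd2 the double-deficient effect in B cell progenitors minus that in CLPs was 0.19 ± 0.43 on the log2 scale (adjusted p = 1.00, edgeR). For Ccnd1 it was 0.96 ± 0.68 and for Cdkn2c -0.37 ± 0.34, both with an adjusted p of 1.00 in edgeR. edgeR called 0 of 10 members, DESeq2 called 0, 0 had an unadjusted p within 0.05, against 1.37% of all genes tested, and 0% of all genes tested were called.

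The single-deficient genotypes gave 0 calls among the 10 genes in edgeR and in DESeq2. In B cell progenitors labelled Plcg1-/-Plcg2+/+, 0.06% of all genes tested were called, and 1 member, Cdkn2d, had an unadjusted p within 0.05 (log2 -0.48 ± 0.18, adjusted p = 0.467 by edgeR), against 9.93% of all genes tested. In this comparison 6 members lay below the controls without overlap, Ccnd3, Cdk4, Cdkn1b, Cdkn2c, Cdkn2d and Ccne1, against 11.2% of all genes tested, and Ccnd2 lay above without overlap, against 8.03%. Those 6 genes are not 6 separate observations, since several of them varied together from library to library, as described below. In Plcg1+/+Plcg2-/- B cell progenitors 0.0467% of all genes tested were called and 0 members had an unadjusted p within 0.05, against 2.84%.

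In CLPs labelled Plcg1-/-Plcg2+/+, 0.00658% of all genes tested were called, and Ccne1 alone had an unadjusted p within 0.05, against 2.85% (log2 -0.49 ± 0.21, adjusted p = 1.00 by edgeR). In Plcg1+/+Plcg2-/- CLPs 0% of all genes tested were called, and 3 members had an unadjusted p within 0.05, against 3.92%, Cdkn2c (-0.61 ± 0.25), Ccne1 (-0.54 ± 0.21) and Cdk4 (-0.28 ± 0.11), each with an adjusted p of 0.939 in edgeR. These values turned on single control libraries, since Cdkn2c was at -0.91 without control CLP replicate 1 and at -0.24 without replicate 2, and Ccne1 ranged from -0.82 to -0.38 with a library left out. Cdk4 lay below the controls without overlap in both single-deficient genotypes, at 304 to 318 and 265 to 319.9 CPM against 338 to 369 CPM. Among all genes tested this held for 2.84% and 4.58%. The 3 comparisons share the same control libraries.

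Against the single-deficient genotypes, the double-deficient one gave 0 edgeR calls among the 10 genes. All genes called made up 0.213% against Plcg1-/-Plcg2+/+ and 0.153% against Plcg1+/+Plcg2-/- in B cell progenitors, and 0.0263% and 0.0526% in CLPs. Ccnd2 was the member whose groups did not overlap against Plcg1-/-Plcg2+/+ in both populations, a pattern that 10.5% of all genes tested in B cell progenitors and 4.7% in CLPs shared. Against Plcg1+/+Plcg2-/- in CLPs Cdkn2c lay above without overlap, at 112 to 126 against 80.4 to 94.3 CPM, as did 7.32% of all genes tested. Same-numbered libraries were correlated in 3 of these comparisons, and with the number as a block 0 members were called while all calls went from 4 to 17 and from 8 to 26 in CLPs and from 23 to 46 in B cell progenitors. The fold changes and p-values given for these comparisons are from fits without the block. For Ccnd2 against Plcg1-/-Plcg2+/+ in CLPs, the alternatives with all libraries of the 2 groups, the block among them, gave -0.99 to -0.91.

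The other genes of the pathway gave few calls in the double-deficient comparison. In B cell progenitors 0 of 10 proliferation genes, which encode replication and mitosis factors such as Mcm2 and Mki67, were called by edgeR or DESeq2, while all 10 had a log2 fold change below 0 and an unadjusted p within 0.05, with a median of -0.46, against 12.3% of all genes tested. Their summed level was 7851 to 8013 CPM in Plcg1+/+Plcg2+/+ and 4273 to 6609 CPM in Plcg1-/-Plcg2-/-, with no overlap. In Plcg1-/-Plcg2+/+ B cell progenitors the sum, at 4763 to 6400 CPM, also lay wholly below the control. In Plcg1+/+Plcg2-/- ones it was 5053 to 8054 CPM, which overlapped the control. In double-deficient CLPs the 10 proliferation genes also lay below 0, 5 of them with an unadjusted p within 0.05, against 7.52%. Both tools called 0 of them, the median was -0.33, and the sums of 4833 to 5630 against 5161 to 7747 CPM overlapped. Of 13 pocket protein and E2F genes in B cell progenitors 11 lay below 0 with a median of -0.25, where edgeR called 0, 5 had an unadjusted p within 0.05 and DESeq2 called 3 lower, E2f1, E2f8 and Rb1, against 2.96% of all genes tested called by DESeq2. All 7 later cyclins and kinases lay below 0 with a median of -0.29, 1 had an unadjusted p within 0.05, and both tools called 0. Single-deficient B cell progenitors shared these signs. Against control, Plcg1-/-Plcg2+/+ had 7 of 7 later cyclins and kinases (median -0.29) and 11 of 13 pocket protein and E2F genes (-0.31) below 0. Plcg1+/+Plcg2-/- had 7 of 7 (-0.16) and 12 of 13 (-0.13). In double-deficient B cell progenitors the 8 genes of activation and turnover and the 6 upstream regulators had medians of -0.06 and 0.10. Of these, 0 had an unadjusted p within 0.05 and 0 were called by either tool. The other inhibitors Cdkn1c, Cdkn2a and Cdkn2b were scarce, with a summed level of at most 15.5 CPM in any library. Cdkn2a, which encodes an Ink4 inhibitor and Arf, was at 3.67 to 11.8 CPM in double-deficient CLPs, above 0.541 to 2.15 CPM in Plcg1-/-Plcg2+/+ and 0.661 to 1.60 CPM in Plcg1+/+Plcg2-/- and overlapping the controls at 1.59 to 3.90 CPM. DESeq2 called it higher against each single-deficient genotype, where it called 0.631% and 0.684% of all genes tested, while edgeR gave 2.42 ± 0.60 (adjusted p = 0.421) and 2.62 ± 0.61 (adjusted p = 0.319) on the log2 scale.

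Markers of other cells moved in the same comparison. The sum of the 5 neutrophil and myeloid precursor markers was 1178 to 3737 CPM in Plcg1+/+Plcg2+/+ B cell progenitors and 2391 to 5653 CPM in the double-deficient ones, and that of the 5 macrophage markers 49.5 to 159.97 against 86.1 to 239.6 CPM, both with overlap. Within the macrophage list C1qa and C1qb, subunits of complement C1q, did not overlap, at 6.99 to 14.8 against 1.28 to 4.94 CPM and at 7.72 to 11.5 against 1.97 to 6.98 CPM in the controls. DESeq2 called C1qa higher, and edgeR gave log2 fold changes of 1.57 ± 0.45 for C1qa (adjusted p = 0.166) and 1.29 ± 0.44 for C1qb (adjusted p = 0.252). All genes of both lists had a log2 fold change above 0, as had the 4 T and NK cell and the 3 plasmacytoid dendritic cell markers, whose sums were at most 130.2 and 226 CPM in B cell progenitors. The first 3 of these lists also lay wholly above 0 in both single-deficient B cell progenitor groups against control. Neutrophil and myeloid precursor medians were 0.98 in Plcg1-/-Plcg2+/+, 0.92 in Plcg1+/+Plcg2-/- and 0.97 in the double-deficient genotype. For the double-deficient genotype against Plcg1-/-Plcg2+/+ that median was -0.15. In CLPs the neutrophil and myeloid precursor sum did not overlap, at 1916 to 2991 CPM in Plcg1+/+Plcg2+/+ and 3056 to 6840 CPM in Plcg1-/-Plcg2-/-. It was 2395 to 7391 CPM in Plcg1-/-Plcg2+/+ and 2048 to 6670 CPM in Plcg1+/+Plcg2-/- CLPs, both overlapping the control. The list medians against control were 1.02 and 0.92 there, beside 0.92 in double-deficient CLPs. In B cell progenitors the pre-B marker Il2ra was the listed marker that edgeR called (log2 -3.40 ± 0.51, adjusted p = 0.00818). It was at 48.4 to 74.1 CPM in Plcg1+/+Plcg2+/+ and at 2.96 to 8.52 CPM in Plcg1-/-Plcg2-/-. The summed pre-B markers ranged there from 773 to 1201 and from 817 to 2471 CPM. The other pre-B markers had log2 fold changes above 0, Igll1 at 1.03 ± 0.53, Vpreb1 at 1.22 ± 0.53 and Vpreb3 at 0.03 ± 0.44, and the list of 4 had a median of 0.53. The part of these cells in the values of the 10 genes was not tested.

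Several of the 10 genes varied together from mouse to mouse. Their log2 CPM (with 1 added) were correlated over the 12 mice of each population, for all pairs of members and for each member with 2 summed lists, 130 relations in all, chosen after the levels had been seen. By permutation and Benjamini-Hochberg adjustment over the 130, 38 relations passed 0.05 for both Pearson's r and Spearman's rho. Values below are over 12 mice of 4 genotypes, and r after centring on each genotype mean is given beside the pooled one. The permutations treat the 12 mice as exchangeable and so take no account of genotype or replicate number. When levels were centred on both, an alternative chosen after seeing the data, the 38 relations had the sign of their pooled r but ranged in size from 0.0288, for Ccnd1 and Cdkn2c in B cell progenitors, to 0.973, with a median of 0.658. Libraries in these sets also differ in depth and in the share of reads on no gene.

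**Figure D4:**
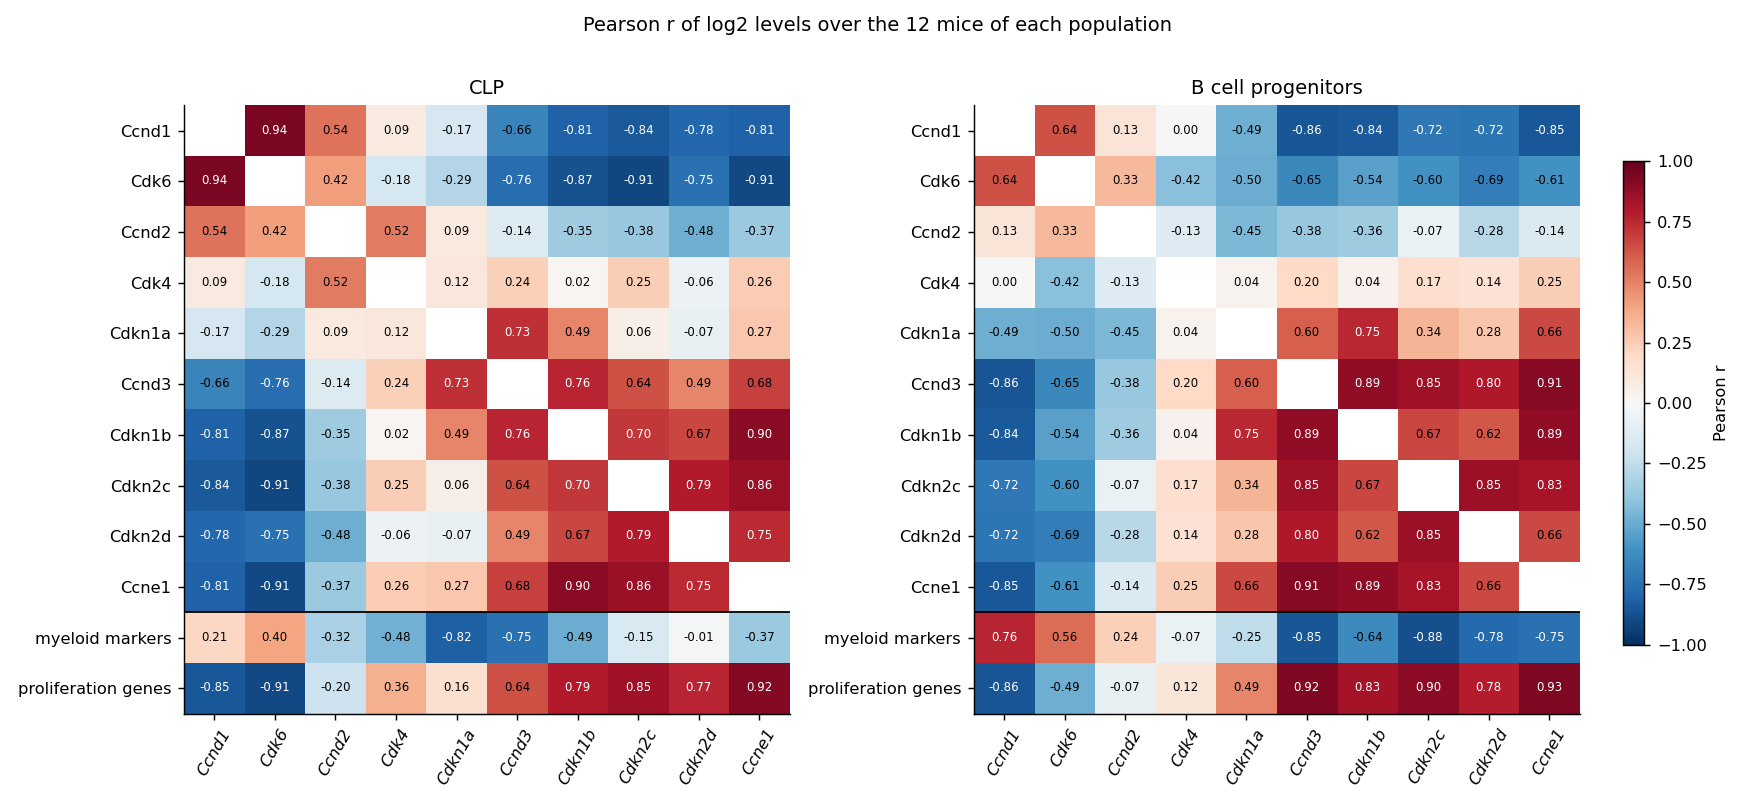
Pearson r of log2 levels over 12 mice for CLPs (left) and B cell progenitors (right), with the 10 genes as columns and, as rows, the 10 genes and below the line the sums of 5 neutrophil and myeloid precursor markers and of 10 proliferation genes; red is positive and blue negative. Ccnd1 and Cdk6 are opposite in sign to Ccnd3, Cdkn1b, Cdkn2c, Cdkn2d and Ccne1, and in B cell progenitors no relation of Cdk6 passed for both coefficients.

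In B cell progenitors Ccnd3 passed with Ccne1 and with 3 inhibitors, Cdkn1b, Cdkn2c and Cdkn2d. Ccnd3 and Ccne1 had r = 0.913 and rho = 0.790 (permutation p = 5e-05 and 0.00344, adjusted 0.000867 and 0.0166), r = 0.868 without the 2 mice farthest out r = 0.940 within genotypes and r = 0.919 with the replicate number centred too. Cdkn1b and Ccne1 had r = 0.889 in B cell progenitors and r = 0.900 in CLPs, where rho was 0.839 (permutation p = 2e-05 and 0.00119, adjusted 0.00078 and 0.0119), r = 0.814 without the 2 farthest mice and r = 0.911 within genotypes. The Ink4 pair Cdkn2c and Cdkn2d had r = 0.852 in B cell progenitors and r = 0.790 in CLPs, where r was 0.518 without the 2 farthest mice. After centring on genotype and number, Cdkn1b and Ccne1 had r = 0.477 in B cell progenitors and r = 0.873 in CLPs. Cdkn2c and Cdkn2d then had r = 0.6555 and r = 0.8375.

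Ccnd1 and Cdk6 in CLPs had r = 0.938 and rho = 0.846 (permutation p = 3e-05 and 0.00089, adjusted 0.00078 and 0.011), r = 0.830 without the 2 farthest mice r = 0.944 within genotypes and r = 0.942 with the replicate number centred too. In B cell progenitors this pair had r = 0.640 and rho = 0.713 (permutation p = 0.0245 and 0.012, adjusted 0.0531 and 0.041), which did not pass for r, and r = 0.310 with genotype and number centred. Relations of Ccnd1 or Cdk6 with the other members were negative where they passed. Cdk6 and Ccne1 in CLPs had r = -0.906 and rho = -0.923 (permutation p = 3e-05 and 6e-05, adjusted 0.00078 and 0.00666), r = -0.857 without the 2 farthest mice r = -0.889 within genotypes and r = -0.812 with the number centred too. Ccnd1 and Ccnd3 in B cell progenitors had r = -0.855 and rho = -0.874 (permutation p = 0.00028 and 0.00041, adjusted 0.00243 and 0.00666), r = -0.824 without the 2 farthest mice r = -0.914 within genotypes and r = -0.584 with the number centred too. In CLPs the same pair had r = -0.658 and rho = -0.546 (permutation p = 0.0191 and 0.0714, adjusted 0.0461 and 0.147), which did not pass for rho. Cdk4 passed with no other member in either population, nor did Cdk6 pass with any in B cell progenitors. Ccnd2 did not pass with any other member over the 12 mice, although within genotypes it had r = 0.727 with Ccnd1 in CLPs and r = 0.705 in B cell progenitors.

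Ccnd3 and Ccnd1 had relations of opposite sign with the summed proliferation genes. Ccnd3 in B cell progenitors had r = 0.924 and rho = 0.881 with that sum (permutation p = 3e-05 and 0.00029, adjusted 0.00078 and 0.00666), r = 0.881 without the 2 farthest mice r = 0.978 within genotypes and r = 0.947 with the number centred too. Ccnd1 had r = -0.856 and rho = -0.783 (permutation p = 0.00031 and 0.00372, adjusted 0.00245 and 0.0173), r = -0.739 without the 2 farthest mice r = -0.835 within genotypes and r = -0.362 with the number centred too. In CLPs Ccnd1 had r = -0.849 and rho = -0.895 (permutation p = 0.0011 and 0.00021, adjusted 0.0053 and 0.00666), r = -0.858 without the 2 farthest mice r = -0.967 within genotypes and r = -0.950 with the number centred too. For Cdk6 with that sum r was -0.906 in CLPs, which passed, and -0.491 in B cell progenitors (rho = -0.427, permutation p = 0.107 and 0.169, adjusted 0.187 and 0.264), which did not. For Ccnd3 in CLPs r was 0.640 and rho 0.448 (permutation p = 0.0213 and 0.147, adjusted 0.0494 and 0.246), which did not pass for rho.

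**Figure D5:**
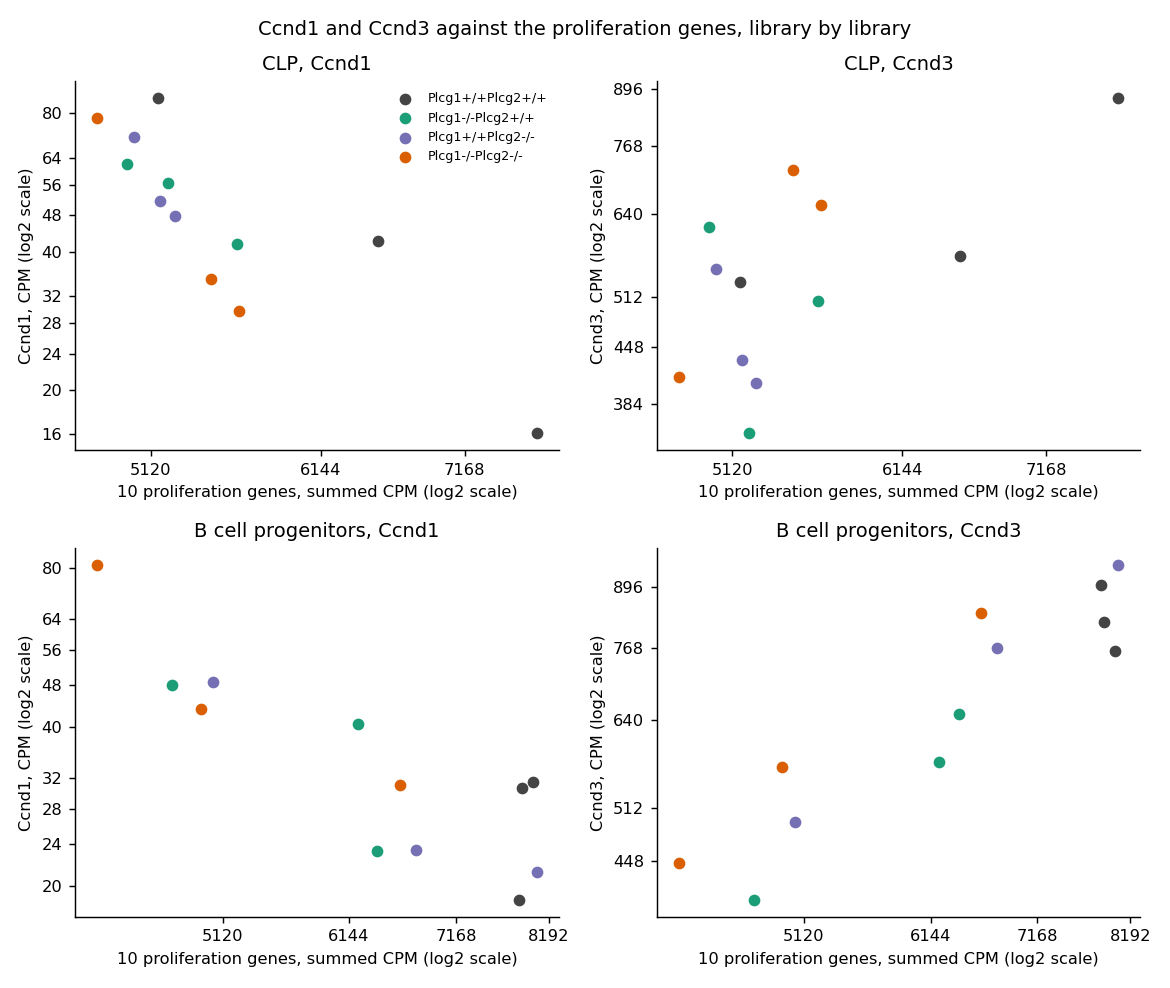
CPM of Ccnd1 (left) and Ccnd3 (right) against the summed CPM of 10 proliferation genes, 1 point per library, CLPs above and B cell progenitors below, with log2-scaled axes and colour for genotype. In B cell progenitors Ccnd3 goes from 446 CPM at a sum of 4273 to 948 CPM at 8054, and Ccnd1 from 81.3 to 21.3 CPM in the same libraries.

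Marker sums moved with the members as well. The neutrophil and myeloid precursor sum in B cell progenitors had r = -0.882 and rho = -0.888 with Cdkn2c (permutation p = 0.00032 and 0.00026, adjusted 0.00245 and 0.00666), r = -0.818 without the 2 farthest mice and r = -0.892 within genotypes. With Ccnd3 it had r = -0.855 and rho = -0.902 (permutation p = 0.0007 and 0.00013, adjusted 0.00414 and 0.00666), r = -0.837 without the 2 farthest mice and r = -0.857 within genotypes. In CLPs the same sum had r = -0.150 with Cdkn2c and r = -0.819 with Cdkn1a (rho = -0.692, permutation p = 0.00169 and 0.0156, adjusted 0.00709 and 0.0503, so that rho did not pass), with r = -0.664 without the 2 farthest mice and r = -0.911 within genotypes. After centring on genotype and number, the sum in CLPs had r = 0.823 with Cdkn2c and r = -0.821 with Cdkn1a. In B cell progenitors it then had r = -0.814 with Cdkn2c and r = -0.854 with Ccnd3. With the proliferation sum Ccnd2 had r = -0.205 in CLPs and r = -0.071 in B cell progenitors over all 12 mice, and r = -0.697 and r = -0.723 within genotypes, so that this relation changed with the centring. The part of other cells in these relations was not tested.

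Levels of several members also followed the replicate number, which the labels do not tie to a batch. Replicate 1 was the lowest of its group in 8 of 8 groups for Ccne1 and in 7 of 8 for Cdkn1a and for Cdkn1b. Replicate 2 was the highest in 8 of 8 groups for Ccnd3. For Cdk4 and for Ccnd2 replicate 1 was the lowest in 2 of 8. Each mouse gave both its libraries under the same number, so the 8 groups are not 8 separate observations. The share of all genes with such an order was not counted. Cdkn1a had a median of 32.0 CPM over the 8 libraries numbered 1 and of 72.9 and 74.1 CPM over those numbered 2 and 3. What the numbers share is not given in the sources used here. Member calls from fits with the number as a block are given with the alternatives. Values of r with it centred are given for many of the relations described, not for all.

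The genes whose levels ran closest to each D cyclin over all 24 libraries, after centring on the mean of each population, differed between the D cyclins. For Ccnd1 they were Parp8 (r = 0.952), Tex2 (r = 0.952) and Smim5 (r = 0.947). For Ccnd2 they were Ivns1abp (r = 0.855), Gnptab (r = 0.837) and H2-T23 (r = 0.828), a less close match. For Ccnd3 they were Dda1 (r = 0.940), Fip1l1 (r = 0.931) and Cbfb (r = 0.931). The 24 libraries are pairs from 12 mice and share genotype, depth and composition, and these r are a description.

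In mm10 the D cyclins lie at chr7:144929931-144939925 (Ccnd1), chr6:127125162-127152193 (Ccnd2) and chr17:47505051-47599691 (Ccnd3), and the kinases at chr10:127063534-127067920 (Cdk4) and chr5:3341485-3531008 (Cdk6). The inhibitors lie at chr17:29090976-29100727 (Cdkn1a), chr6:134920401-134925513 (Cdkn1b), chr4:109660876-109667189 (Cdkn2c) and chr9:21288410-21291407 (Cdkn2d), and Ccne1 at chr7:38097984-38107534. Exons of other protein-coding genes lie on the opposite strand of Ccnd1 (LTO1, 1100 shared bases) and Cdk4 (Tspan31, 641 shared bases) as well as of Ccnd3. Reads of such stretches cannot be assigned by strand in these libraries.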

How the data were processed

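Poly(A) RNA was sequenced on a NextSeq 500 after a library kit that does not mark the strand. The authors aligned reads with STAR 2.5.0a to mm10 and deposited raw read counts per RefSeq gene symbol, unnormalized; the counting program is not given in the sources used here. Reads on no gene and ambiguous reads stayed out of library sizes and tests. Tests ran on these counts in edgeR 4.0.16 (R 4.3.3; TMM, filterByExpr, glmQLFit, glmQLFTest, Benjamini-Hochberg over all genes tested), 1 fit of 12 libraries per population and 1 of 24 for comparisons between populations. Levels are CPM scaled by TMM over 24 libraries; per-kilobase levels use GENCODE M21 exons of transcripts matched to RefSeq.

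The members and lists were chosen with earlier results of these data known. Named genes were the 10 members, list genes called (at most 6 a list) and the 3 genes most correlated with each D cyclin. Il2ra, C1qa, C1qb, the other pre-B markers, Cdkn1c, Cdkn2a, Cdkn2b, E2f1, E2f8 and single markers given as ranges were named after their values were seen. Permutation tests drew 100000 resamples. Results of 1 listed marker are not reported here.

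The 2 libraries of each mouse share its ID in the labels; their deviations from group means correlated at -0.350 to 0.530, above 0.1 in 7 of 12 mice. Same-numbered libraries correlated above 0.1 in all 3 pairs in 3 comparisons of the double-deficient with a single-deficient genotype (0.346 to 0.612 and 0.204 to 0.484 in CLPs, 0.130 to 0.253 in B cell progenitors). The mouse or the number as a block was an alternative, and the values given come from fits without a block unless one is named. Intervals from depth cover counting error only. The fits were tested on simulated data. For the double-deficient comparison with control, 2-fold changes were called in 11 of 50 genes in CLPs and 13 of 50 in B cell progenitors. For 1.5-fold changes these counts were 0 and 1 of 50, and for 4-fold changes 33 and 37. Between the populations, 17 of 50 were called at 1.5-fold and 33 at 2-fold. A count of 0 calls therefore does not show that changes of such size are absent. Alternatives were RLE size factors, no low-count filter, DESeq2 1.42.0, adjusted p alone, the 2 groups alone, replicate blocks and each library left out.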

Additional observations from a re-analysis of the deposited data

How the results depend on the processing

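Alternatives were followed for 39 results of single members. Every member was included for the double-deficient comparisons with control and for the populations averaged over genotypes. Elsewhere only members with an unadjusted p within 0.05 were included, besides the difference of the Ccnd2 effect between populations. Sign changes among the results left out, mostly of small effects, were not counted. Of 795 values of single members in the results followed, 22 changed sign, all but 1 of them with a library left out. The exception was Cdkn1a in CLPs (double-deficient against Plcg1+/+Plcg2+/+), at 0.012 without the low-count filter. With each library left out, the log2 fold changes of that CLP comparison ranged from -0.62 to 0.66 for Ccnd1, -0.31 to 0.12 for Ccnd3, -0.25 to 0.67 for Cdk6, -0.30 to 0.32 for Cdkn1a, -0.41 to 0.0046 for Cdkn1b, -0.47 to 0.20 for Cdkn2c and -0.36 to 0.076 for Cdkn2d. Ccnd3, Cdk6, Cdkn1b, Cdkn2c and Cdkn2d turned without control replicate 2. In B cell progenitors they ranged from -0.11 to 0.050 for Cdk4, -0.070 to 0.36 for Cdk6 and -0.20 to 0.43 for Cdkn1a. The difference of the Ccnd2 effect between populations ranged from -0.17 to 0.46. Ccnd2 in the double-deficient comparison stayed below 0 throughout, with an adjusted p of 0.0871 to 0.648 in B cell progenitors and 0.274 to 0.902 in CLPs. With a library left out its log2 fold change ranged from -0.91 to -0.49 and from -1.13 to -0.53.

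Member calls, 0 throughout in the fits as reported, went to 1 in double-deficient B cell progenitors against control with the replicate block (Ccnd1, 0.85, adjusted p = 0.0318 by edgeR, where same-numbered pairs correlated at -0.09 to 0.22 and shared only a number; its adjusted p over all alternatives was 0.0318 to 0.822), and to 1 against Plcg1-/-Plcg2+/+ with DESeq2. Between the populations they went to 1 without the filter (Ccnd2), 1 with the mouse block (Cdkn1a), 3 by adjusted p alone, and 0 to 4 with a library left out, 10 of the 24 libraries giving at least 1. In Plcg1+/+Plcg2+/+ alone that range was 0 to 1. Calls over all genes with a library left out were 1970 to 3222 between the populations and 375 to 606 in Plcg1+/+Plcg2+/+ alone. The block changed no other member call. Fits without a library test more genes, which moved the median of all genes between the populations by -0.08 to -0.04; otherwise the cause was not tested.

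Counts over all genes moved more. In the double-deficient comparison with control the 134 calls in B cell progenitors became 444 with DESeq2, 550 with the block, 238 with the 2 groups alone and 50 to 184 with a library left out, and the 14 in CLPs became 169, 50, 0 and 0 to 44. DESeq2 gave 802 in place of 32 and 161 in place of 23 for the double-deficient against the single-deficient genotypes in B cell progenitors, and 96 in place of 4 and 104 in place of 8 in CLPs. Depth limits the scarce inhibitors Cdkn1c, Cdkn2a and Cdkn2b, since 3 reads reached 2.03 CPM in the shallowest library.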
